A study of Mus musculus with 6 samples.

Results

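Pip, Sval1, Sval2, Sval3, 5530400C23Rik and Gm5885 are 6 genes of secreted or presumed secretory products that were picked out in the submandibular gland because they had been seen lower after ovariectomy. They were found by their gene symbols in the platform annotation of the array, where each has 1 probe set, and they make up 6 of the 19505 genes measured. The arrays did not show the 6 moving together. Sval2, 5530400C23Rik and Gm5885 were much lower in glands of ovariectomized mice (OVX-SG) than in glands of sham-operated mice (Cont), Pip was bright and nearly level in both groups, and Sval1 and Sval3 lay at background on all 6 arrays. The difference between OVX and Cont chose these genes, so their values are given as a description and without a test.

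The study asked how loss of the ovaries alters the salivary gland. BALB/c female mice underwent bilateral ovariectomy (OVX, 3 mice) or a sham operation (Cont, 3 mice) at 6 weeks of age. Submandibular glands were removed 8 weeks later, at 14 weeks of age, and total RNA of each mouse was hybridised to 1 Clariom S mouse array, a one-colour platform that summarises the probes of a gene into a probe set. The labels name no other allele, drug or agent for either group, so by the labels OVX and Cont differ in the operation only. The methods of the paper describe an anaesthetic at either operation, and pilocarpine given for saliva collection before the glands were removed. Whether the mice of the arrays received pilocarpine is not stated. The glands were whole tissue, so that fewer cells of a type and less RNA per cell cannot be told apart in any value below.

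PIP, prolactin-inducible protein, also called GCDFP-15, is a small secreted protein of salivary, lacrimal, sweat and other exocrine glands, and in human breast tumour cells its gene is induced by androgen and prolactin. The mouse Sval genes encode seminal vesicle antigen-like proteins, paralogues of PIP that lie beside it together with Sva, the gene of seminal vesicle antigen, a protein of seminal fluid that binds sperm. 5530400C23Rik and Gm5885 are little described, and no function is given for them here. All 6 probe set identifiers carry the number of chromosome 6. In the RefSeq order of genes the 6 fall into 2 places on that chromosome. Pip, Sval2, Sval1, Sval3 and Sva follow one another with no other annotated gene between them, and far away 5530400C23Rik and Gm5885 lie side by side with only a pseudogene, Gm34149, between them.

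The sequences around the start sites are shown because those of the Sval genes, of which only Sval2 read above background in Cont, are closely similar. Each runs 5′ to 3′ over 250 bases before and 50 bases after the start of the gene, on the + strand of GRCm38.p6, and is taken from RefSeq, where 5 of the 6 genes had an entry. The windows are chr6:41847299-41847598 for Pip, chr6:41860057-41860356 for Sval2, chr6:41951378-41951677 for Sval1, chr6:41967890-41968189 for Sval3 and chr6:133291966-133292265 for 5530400C23Rik. Capitals mark TATAAA in Pip and 5530400C23Rik, and in the Sval genes the runs of 12 or more bases that all 3 share with Sva.
Pip: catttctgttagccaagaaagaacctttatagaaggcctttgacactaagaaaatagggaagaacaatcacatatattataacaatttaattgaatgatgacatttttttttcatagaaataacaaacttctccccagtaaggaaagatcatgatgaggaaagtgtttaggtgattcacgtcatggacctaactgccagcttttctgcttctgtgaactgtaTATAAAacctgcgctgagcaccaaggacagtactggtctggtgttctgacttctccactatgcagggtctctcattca
Sval2: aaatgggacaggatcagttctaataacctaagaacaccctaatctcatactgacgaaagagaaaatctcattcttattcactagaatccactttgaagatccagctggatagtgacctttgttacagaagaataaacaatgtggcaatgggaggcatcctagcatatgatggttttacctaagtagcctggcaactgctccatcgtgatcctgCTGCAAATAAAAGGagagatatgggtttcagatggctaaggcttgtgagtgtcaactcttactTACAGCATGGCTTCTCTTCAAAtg
Sval1: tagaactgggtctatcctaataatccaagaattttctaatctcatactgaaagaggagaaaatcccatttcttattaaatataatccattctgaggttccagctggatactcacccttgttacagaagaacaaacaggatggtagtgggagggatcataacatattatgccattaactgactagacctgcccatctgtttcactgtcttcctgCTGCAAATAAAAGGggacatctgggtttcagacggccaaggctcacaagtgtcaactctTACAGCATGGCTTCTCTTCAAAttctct
Sval3: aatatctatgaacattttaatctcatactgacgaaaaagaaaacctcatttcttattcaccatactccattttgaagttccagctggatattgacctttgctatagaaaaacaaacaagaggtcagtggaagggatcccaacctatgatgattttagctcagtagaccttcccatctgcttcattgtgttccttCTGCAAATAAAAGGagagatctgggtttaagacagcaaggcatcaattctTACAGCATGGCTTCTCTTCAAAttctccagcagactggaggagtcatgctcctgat
5530400C23Rik: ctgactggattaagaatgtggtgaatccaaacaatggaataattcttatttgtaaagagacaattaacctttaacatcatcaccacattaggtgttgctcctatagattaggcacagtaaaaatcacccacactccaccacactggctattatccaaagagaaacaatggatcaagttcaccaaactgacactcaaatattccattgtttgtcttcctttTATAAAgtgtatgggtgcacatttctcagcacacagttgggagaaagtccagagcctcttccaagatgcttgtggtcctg

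After pairwise global alignment, 82.6% of the aligned letters were identical between the promoters of Sval2 and Sval3, 81.6% between Sval1 and Sval3 and 78.8% between Sval1 and Sval2. The promoter of Sva, which is not one of the 6 genes, was as close to them, at 78.7% with Sval2, 78.9% with Sval1 and 81.6% with Sval3. Pip was more distant, with 64.7% to Sval2, 66.9% to Sval1 and 74.1% to Sval3. 5530400C23Rik shared between 57.4% and 66.4% of aligned letters with the other promoters, all of them genes of the other place on the chromosome. Letters opposite gaps are left out of these percentages, and over all 300 bases its identity was between 51.7% and 56%. Unrelated promoters were not aligned, so whether the lower percentages exceed those of unrelated sequence was not tested. A run of 14 bases, CTGCAAATAAAAGG, began 37 bases before the start in Sval1, Sval2 and Sva and 56 bases before it in Sval3. A run of 22 bases, TACAGCATGGCTTCTCTTCAAA, began 23 bases after the start in Sval1 and Sva, 27 bases after it in Sval2 and 6 bases before it in Sval3. In Sval1, Sval2 and Sva it therefore lies inside the gene. Both runs lay further upstream in Sval3, and whether its start is annotated like those of the others was not tested. Both runs were present in 4 of the 32851 RefSeq promoters of the same length, those of Sval1, Sval2, Sval3 and Sva.

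**Figure D1:**
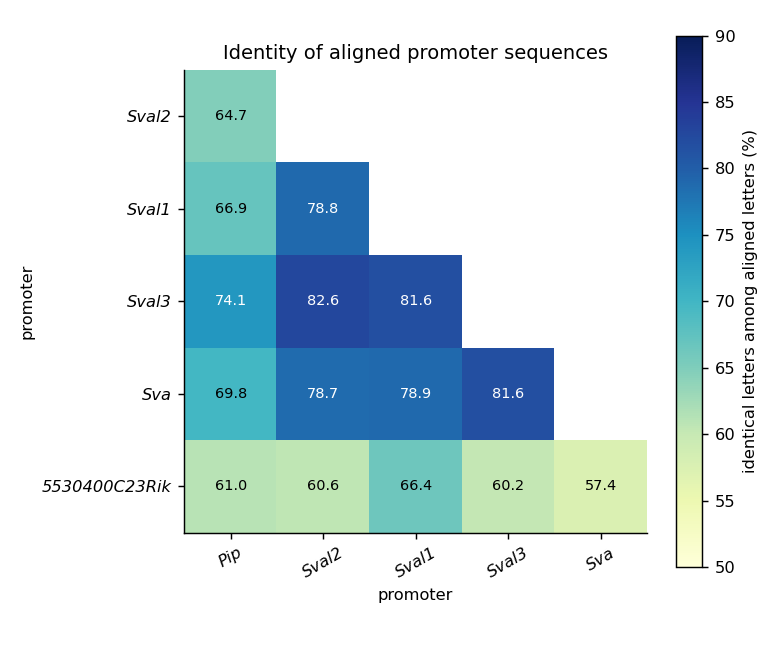
Percentage of identical letters among aligned letters for each pair of promoters, with genes on both axes and the value printed in each cell. The darkest cells are the pairs among Sval1, Sval2, Sval3 and Sva, between 78.7% and 82.6%, and the row of 5530400C23Rik is the palest.

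Short motifs were searched on both strands of these windows. The letters TATAAA, the core of the TATA box, began at base −28 in Pip and at base −30 in 5530400C23Rik, and 13.6% of all promoters of this length hold them on either strand. They were in none of the 3 Sval promoters. TTCNNNGAA, the core bound by STAT5, the factor that carries the signal of the prolactin receptor, occurred among the 5 in Pip alone, at 2 positions, against 8.3% of all promoters with at least 1. The complete estrogen response element was in none of the 5 windows, and 0.07% of all promoters hold it. These matches are letters in a window of 300 bases and not measured binding.

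The deposited table has no detection calls, so a background was taken from genes that a salivary gland is not known to use. On each array, 1412 probe sets of olfactory and vomeronasal receptors had a median between 2.66 and 2.80 log2 units, and their 95th percentile, called the background limit here, lay between 4.48 and 4.56 on the OVX arrays and between 4.55 and 4.67 on the Cont arrays. Y-linked genes, which these female mice lack, were lower still, and the highest of Uty, Kdm5d and Eif2s3y on an array was between 2.07 and 2.50. The array medians were between 5.20 and 5.22, and no array stood apart, with correlations between arrays of one group of at least 0.98. Among markers of the gland, 16 of 17 acinar genes and 12 of 12 genes of the granular convoluted tubules were above the limit on all 6 arrays. So were 553 of the 1044 other measured genes of chromosome 6, which were not chosen by tissue.

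**Figure D2:**
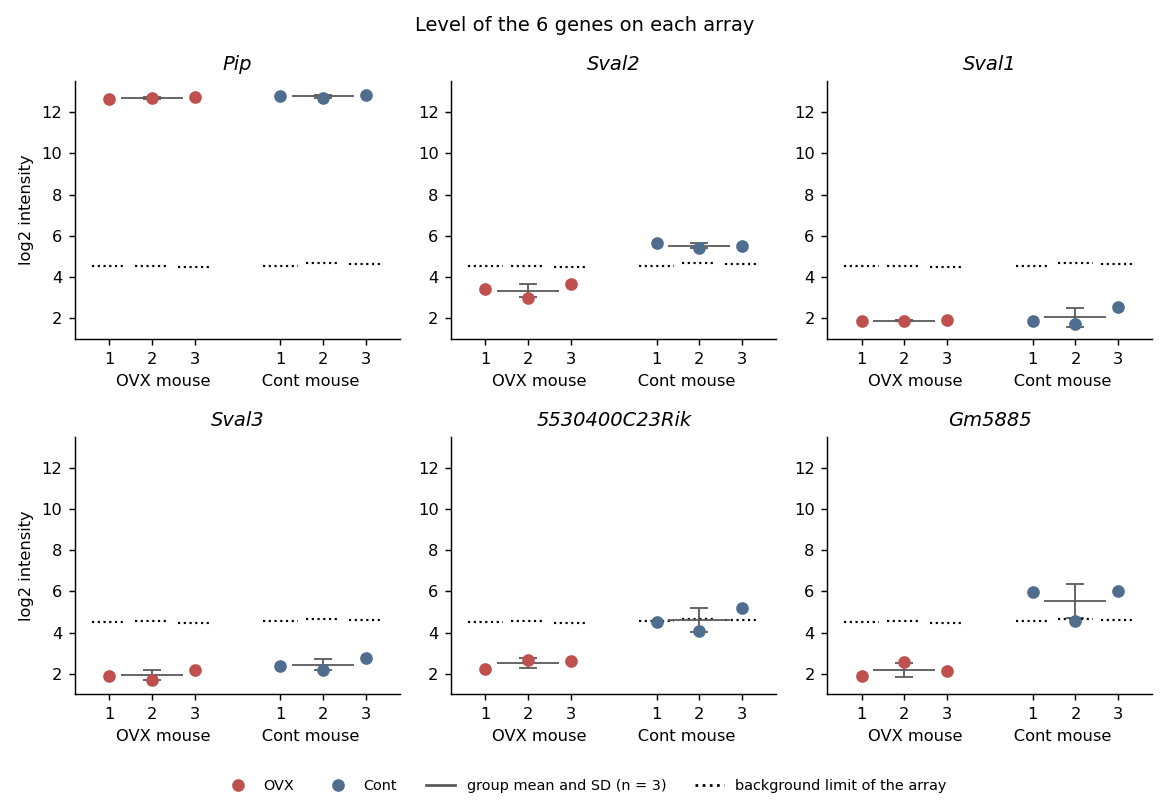
Log2 intensity of each of the 6 genes on the 3 OVX arrays (red) and the 3 Cont arrays (blue), with the group mean and SD in grey and the background limit of each array as a dotted line. Pip sits above 12.6 on all arrays, Sval2 and Gm5885 have OVX points under the limit and most Cont points over it, and Sval1 and Sval3 are under the limit throughout.

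Pip was the only one of the 6 above the background limit on every array. Its log2 level was 12.64, 12.67 and 12.72 in the 3 OVX mice, against 12.78, 12.69 and 12.83 in the 3 Cont mice. The groups overlapped, because Cont mouse 2 was below OVX mouse 3. The means were 12.67 ± 0.04 in OVX and 12.77 ± 0.07 in Cont (SD, n = 3 each), a difference of −0.09 with a standard error of 0.13 and a 95% interval of −0.37 to 0.19. The interval includes 0, and at its lower end it would allow a level lower by 0.37 log2 units. Pip was also close to the upper end of the scale, where the highest probe set read between 12.95 and 12.98 on the OVX arrays and between 13.03 and 13.06 on the Cont arrays. Between 10 and 12 of the 22206 probe sets were brighter than Pip on the OVX arrays and between 5 and 8 on the Cont arrays. Whether the signal is compressed at this brightness was not tested.

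Sval2, whose start is the next after that of Pip, had one of the lowest differences on the array. It read 3.40, 3.00 and 3.64 in OVX mice, against 5.67, 5.40 and 5.50 in Cont mice. All 3 OVX values were under the background limit and all 3 Cont values above it, with a gap of over 1 unit between the groups. The means were 3.35 ± 0.33 in OVX and 5.52 ± 0.14 in Cont (SD, n = 3 each), and the difference was −2.18 with a 95% interval of −2.56 to −1.79. On the measured means this is 4.52-fold lower. Because the OVX level was not above background, only a bound holds for the change in RNA, and Sval2 was at least 2.00-fold lower in OVX when the OVX mean was set to the mean of the limits of those arrays. With the 99th percentile of the receptors as the limit, the same figure was 1.16-fold. Only 2 of the 3 Cont arrays were above that limit, so there it is not a bound. Among the 19505 genes it had the 8th lowest difference.

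Sval1 and Sval3, the other Sval genes, gave no level to compare. Sval1 read 1.88, 1.85 and 1.93 in OVX mice, against 1.85, 1.72 and 2.56 in Cont mice, and all 6 values were under the median of the receptor probe sets. Cont mouse 3 alone stood over the other 5 values. The difference was −0.15 with a 95% interval of −0.60 to 0.29, and without Cont mouse 3 it turned to 0.10. Sval3 read 1.91, 1.72 and 2.20 in OVX mice, against 2.40, 2.19 and 2.75 in Cont mice. Its groups overlapped narrowly, because Cont mouse 2 was just below OVX mouse 3, and its difference was −0.50 with a 95% interval of −0.90 to −0.11. A lower signal under the limit gives no fold for either gene. The probe sequences were not used here, so whether Sval1, Sval2 and Sval3 are read independently of each other was not tested.

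Sva, the paralogue at the end of the same run of genes, served as a comparison that was not chosen by its values. It read 2.94, 2.27 and 2.92 in OVX mice, against 2.66, 2.27 and 2.75 in Cont mice, under the limit on all arrays, with a difference of 0.15 that did not pass (limma adjusted p = 0.78). Of the 5 genes in the Pip and Sval run, Sval2 was therefore the only one with Cont values above background and OVX values below it.

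The remaining 2 of the 6 genes lie at the other place on chromosome 6. Gm5885 had the lowest difference of the 6. It read 1.90, 2.57 and 2.14 in OVX mice, against 5.96, 4.57 and 6.04 in Cont mice, so that Cont mouse 2 stood well below the other Cont mice and just under the limit of its array while the groups remained apart. The means were 2.20 ± 0.34 in OVX and 5.52 ± 0.83 in Cont (SD, n = 3 each), with a difference of −3.32 and a 95% interval of −4.06 to −2.58, the 5th lowest among all genes. The measured means differ 9.99-fold. With the OVX mean set to the mean of the limits of those arrays, the Cont mean was 2.00-fold higher. It was 1.16-fold higher with the 99th percentile as the limit. Neither figure is a bound, because only 2 of the 3 Cont arrays were above either limit.

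5530400C23Rik followed the same order at a lower level. It read 2.23, 2.68 and 2.61 in OVX mice, against 4.53, 4.07 and 5.21 in Cont mice. The groups did not overlap, yet only Cont mouse 3 was above the background limit. The means were 2.51 ± 0.24 in OVX and 4.60 ± 0.58 in Cont (SD, n = 3 each), with a difference of −2.10, a 95% interval of −2.65 to −1.55 and the 10th lowest place among all genes. The measured means differ 4.28-fold, and no bound is given because 2 of the 3 Cont arrays were themselves under the limit. In both genes at this place the spread among Cont mice was wider than that of Sval2, with SDs of 0.58 and 0.83 against 0.14.

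Over the 6 genes the median difference was −1.30, beside −0.02 over all 19505 genes. The mean was lower in OVX for 6 of the 6, beside 53.1% of all genes. All OVX values lay under all Cont values for 3 of the 6, beside 10.6% of all genes. The mean was at least 2-fold lower for the same 3, Sval2, 5530400C23Rik and Gm5885, beside 0.302% of all genes. Since the genes were taken for being lower, nothing is read from these counts. The 6 differences fall into 2 sets with a wide space between them, −3.32, −2.18 and −2.10 in one and −0.50, −0.15 and −0.09 in the other. Those just inside and just outside that space were 5530400C23Rik and Sval3.

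**Figure D3:**
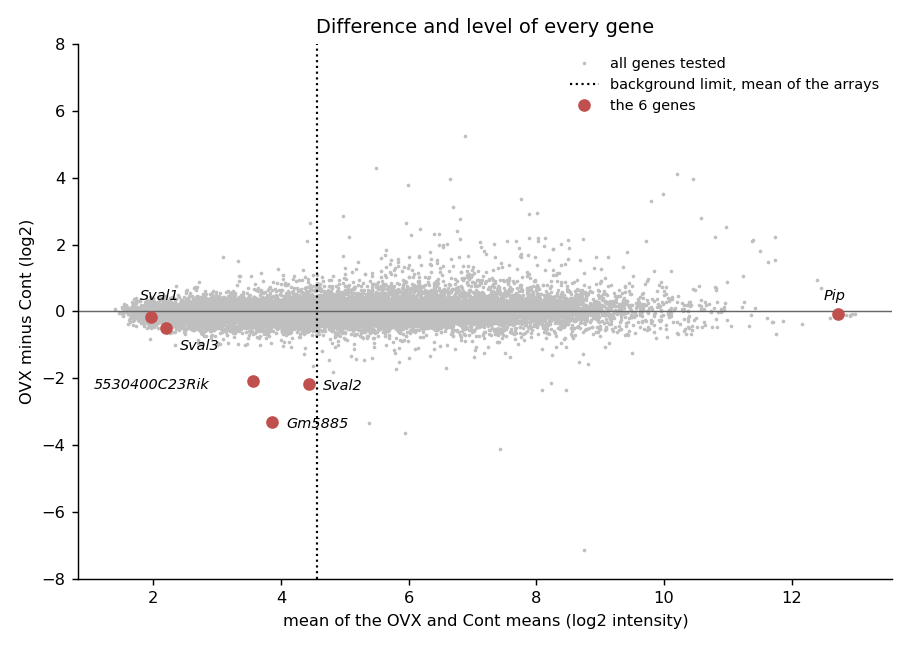
OVX minus Cont difference in log2 units (vertical) against the mean of the OVX and Cont means (horizontal) for every gene tested, with the 6 genes in red and the mean background limit as a dotted line. Gm5885, Sval2 and 5530400C23Rik lie between −3.32 and −2.10 at or left of the limit, Sval1 and Sval3 lie in the dense background region, and Pip lies at the bright end near 0.

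All 6 genes had their lowest Cont value in the same animal, Cont mouse 2, which was the lowest Cont array for 32.7% of all genes. The gap was largest for Gm5885, where Cont mouse 2 read 4.57 and the other Cont mice 5.96 and 6.04. The highest Cont value was that of mouse 3 for 5 of the 6 genes and that of mouse 1 for Sval2. Sval1 and Sval3 are counted here although all their values were under the background limit. Among the marker lists, the 12 genes of the granular convoluted tubules, the androgen-responsive ducts of this gland that make EGF and kallikreins, were also lowest in Cont mouse 2 in 12 of 12 cases, with a mean level of 9.73 there, 10.49 in Cont mouse 1 and 10.65 in Cont mouse 3. Between OVX and Cont these tubule genes went the other way from the 6, with a median difference of 2.18. The 17 acinar genes had no such order, with Cont mouse 2 lowest in 4 of them. Over the other lists its share ran between 0% of 3 blood genes and 63.6% of 11 fat genes. Leaving out Cont mouse 2 moved the difference of Gm5885 to −3.80 and that of 5530400C23Rik to −2.36. No test was made of this order.

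The genes around the 6 were compared next. Within 500 kb of one of the 6, 40 other genes were measured, and 28 of them were under the background limit on all arrays. One neighbour passed the test in the direction of lower values and 0 in the direction of higher values (limma adjusted p under 0.05), which is 2.5% lower beside 1.07% of all genes (2.57% of all genes were higher, 3.63% in all). At an unadjusted p under 0.05, 4 were lower and 2 higher, and 0 passed by the methods' t-test after adjustment. The one that passed was Tas2r110, a bitter taste receptor gene, which read 1.60, 1.45 and 1.54 in OVX mice, against 2.21, 2.56 and 2.29 in Cont mice (difference −0.82, limma adjusted p = 0.00855), under the background limit on all 6 arrays. Over the 1044 other genes whose identifiers place them on chromosome 6, 13 were lower and 34 higher, or 1.25% and 3.26%, beside 1.07% and 2.57% of all genes.

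Immediately before Pip lie Trpv5 and Trpv6, which encode epithelial calcium channels, Llcfc1, Kel, the gene of the Kell blood group protein, the olfactory receptor gene Olfr459 and, before those, Ephb6. Their differences ran between −0.53 in Ephb6 and 0.13 in Llcfc1, and none passed, with limma adjusted p between 0.256 in Trpv6 and 0.962 in Olfr459. Beyond Sva lie the taste receptor genes Tas2r139 and Tas2r144, Gstk1, Tmem139 and Casp2. Gstk1, a peroxisomal glutathione transferase well above background, averaged 7.30 ± 0.28 in OVX and 7.33 ± 0.14 in Cont, and Tmem139 averaged 5.70 ± 0.14 in OVX and 5.13 ± 0.32 in Cont (SD, n = 3 each, limma adjusted p = 0.11). Next to 5530400C23Rik, Smim10l1 averaged 8.33 ± 0.17 in OVX and 8.32 ± 0.13 in Cont. On the far side of Gm5885 the next measured gene was Kap, the kidney androgen-regulated protein gene, which was under the limit on all arrays with 2.90 ± 0.22 in OVX and 2.74 ± 0.16 in Cont.

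**Figure D4:**
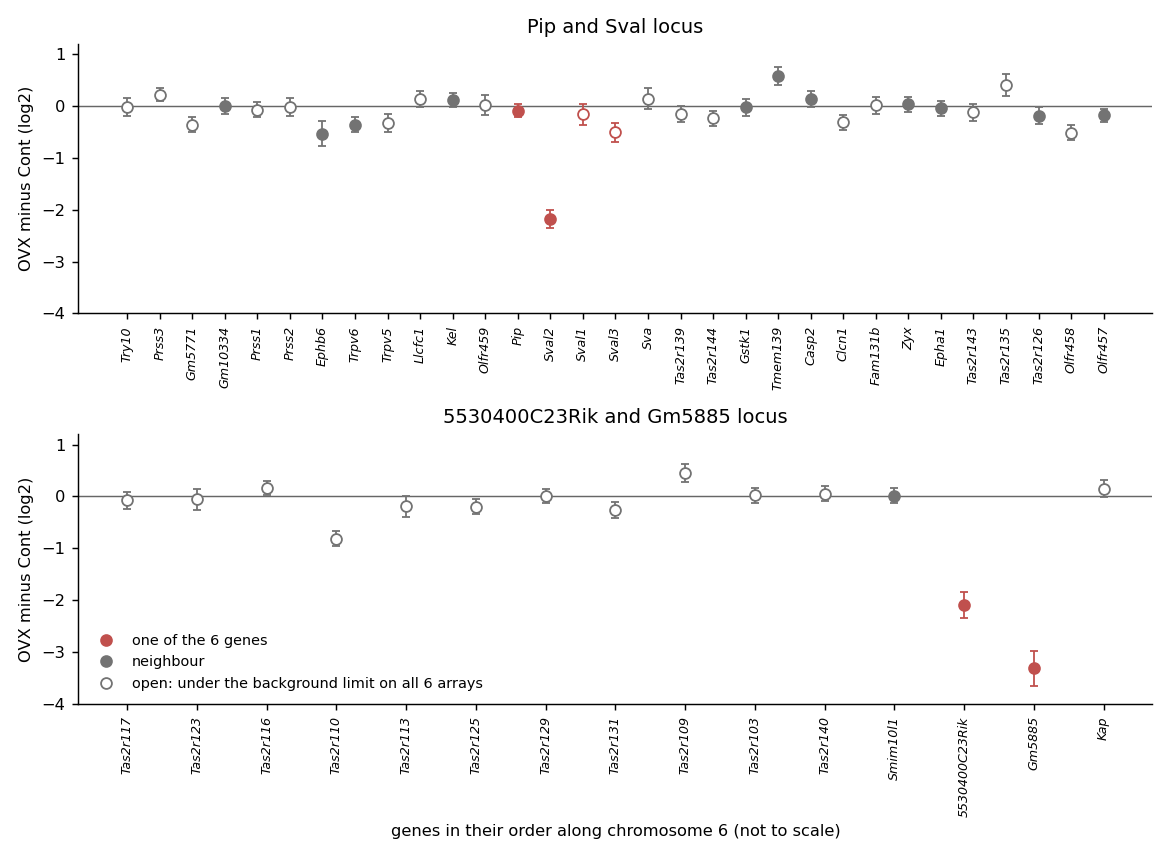
OVX minus Cont difference in log2 units with its standard error for each measured gene within 500 kb, in order along chromosome 6, the 6 genes in red, neighbours in grey and open circles for genes under the background limit on all arrays. Sval2 at −2.18 and the pair at −2.10 and −3.32 stand below neighbours that lie between −0.82 and 0.57.

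For each of the 6 genes, the genes with the most similar profile were sought by the root mean square difference over the 6 arrays, after each profile was centred on its own mean. Sval2 had the closest companions among the genes that were lower, Fads2b at 0.21, Slc37a2 at 0.22 and Tmigd1 at 0.27 log2 units. Tmigd1 read 7.37, 7.36 and 7.11 in OVX mice, against 9.83, 9.52 and 9.55 in Cont mice, and all 3 companions were above the background limit on all arrays. For 5530400C23Rik the closest were Aldh1l2 at 0.37, Tmigd1 at 0.42 and Sval2 at 0.42. For Gm5885 they were A830018L16Rik at 0.66, 5530400C23Rik at 0.68 and Tmigd1 at 0.68. The difference that chose these genes makes up most of each profile, so nothing is read from members being near one another. Likeness was not particular for the other members. As many as 13730 genes lay within 0.25 of Pip, 3259 within 0.25 of Sval1 and 1625 within 0.25 of Sval3, whose profiles were nearly flat, against 2 within 0.25 of Sval2 and 0 within 0.25 of 5530400C23Rik or Gm5885.

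Other secreted products of salivary glands were followed beside the 6. Of 35 measured, 4 were lower and 3 higher in OVX (limma adjusted p under 0.05), or 11.4% and 8.57%, beside 1.07% and 2.57% of all genes, and their median difference was −0.13. Smgc, a secreted protein of the submandibular gland, read 5.49, 4.22 and 5.81 in OVX mice, against 12.38, 12.27 and 12.33 in Cont mice, the groups lying far apart (limma adjusted p = 1.13e-06). The Smgc value of OVX mouse 2 was under the background limit of its array. Oit1 averaged 8.87 ± 0.19 in OVX and 10.12 ± 0.26 in Cont (limma adjusted p = 0.00169). In the other direction, Amy1, salivary amylase, averaged 7.47 ± 0.38 in OVX and 5.49 ± 0.57 in Cont (limma adjusted p = 0.00173), and Smr2, an androgen-regulated submandibular protein, averaged 8.62 ± 1.19 in OVX and 4.67 ± 0.53 in Cont (SD, n = 3 each, limma adjusted p = 0.000684), a call that was lost with the trend and robust options of limma (adjusted p = 0.0642). In Cont mouse 2, Smr2 read 4.06, under the background limit of that array. Secreted products thus moved in both directions, with Pip near 0 between them.

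Secretory genes of the seminal vesicle and prostate, the male organs for which the Sval family is named, gave little signal. Of 16 measured, 13 were under the background limit on all arrays, 0 passed in either direction by limma or by the methods' t-test, and at an unadjusted limma p under 0.05 1 was higher and 2 were lower. Svs6, with the smallest p, averaged 2.81 ± 0.14 in OVX and 2.21 ± 0.22 in Cont (SD, n = 3 each, limma adjusted p = 0.0585), under the limit on all arrays. Above the limit on all arrays was 1 of the 16, and Svs3b, also of this list, was above it on 5 arrays. Sval2 was above it on 3 arrays, those of the Cont mice. Since Sval2 was chosen by its difference between the groups, nothing is read from its level beside this list.

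Of 19 measured hormone receptors and carriers of their signals, 2 were higher and 2 lower, beside 2.57% and 1.07% of all genes. Stat5a, which carries signals of prolactin and growth hormone, averaged 6.69 ± 0.16 in OVX and 7.43 ± 0.07 in Cont, a difference of −0.74 (limma adjusted p = 0.013). Stat3, which carries cytokine signals, averaged 7.43 ± 0.18 in OVX and 8.06 ± 0.09 in Cont (limma adjusted p = 0.0339). With 1 array left out, Stat5a passed in 5 of 6 fits and Stat3 in 1 of 6, with the highest adjusted p of 0.0677 and 0.133 without OVX mouse 3. Ghr, the growth hormone receptor, averaged 9.42 ± 0.07 in OVX and 8.58 ± 0.12 in Cont (limma adjusted p = 0.00479). Fkbp5, a co-chaperone of steroid receptors whose gene responds to glucocorticoids and androgens, averaged 9.93 ± 0.15 in OVX and 8.30 ± 0.17 in Cont (SD, n = 3 each, limma adjusted p = 9.65e-05).

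Proteins reported to bind human PIP, among them fibronectin, actin and CD4, had 5 genes measured, of which 0 passed by limma or the methods' t-test and 1 was higher at an unadjusted limma p under 0.05. Fn1 averaged 6.36 ± 0.54 in OVX and 5.69 ± 0.23 in Cont (SD, n = 3 each, limma adjusted p = 0.191). Transcription factors of secretory cells numbered 20, of which 2 were lower and 0 higher, beside 1.07% and 2.57% of all genes, with 4 lower and 1 higher at an unadjusted p under 0.05 and 0 called by the methods' t-test after adjustment. Spdef, a factor of mucous and other secretory cells, averaged 6.51 ± 0.29 in OVX and 7.59 ± 0.17 in Cont (limma adjusted p = 0.00466), and Creb3l1, a factor of the secretory pathway, averaged 9.48 ± 0.24 in OVX and 10.27 ± 0.19 in Cont (SD, n = 3 each, limma adjusted p = 0.0221). Creb3l1 passed in 2 of 6 fits with 1 array left out, with the highest adjusted p of 0.0834 without Cont mouse 2.

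**Figure D5:**
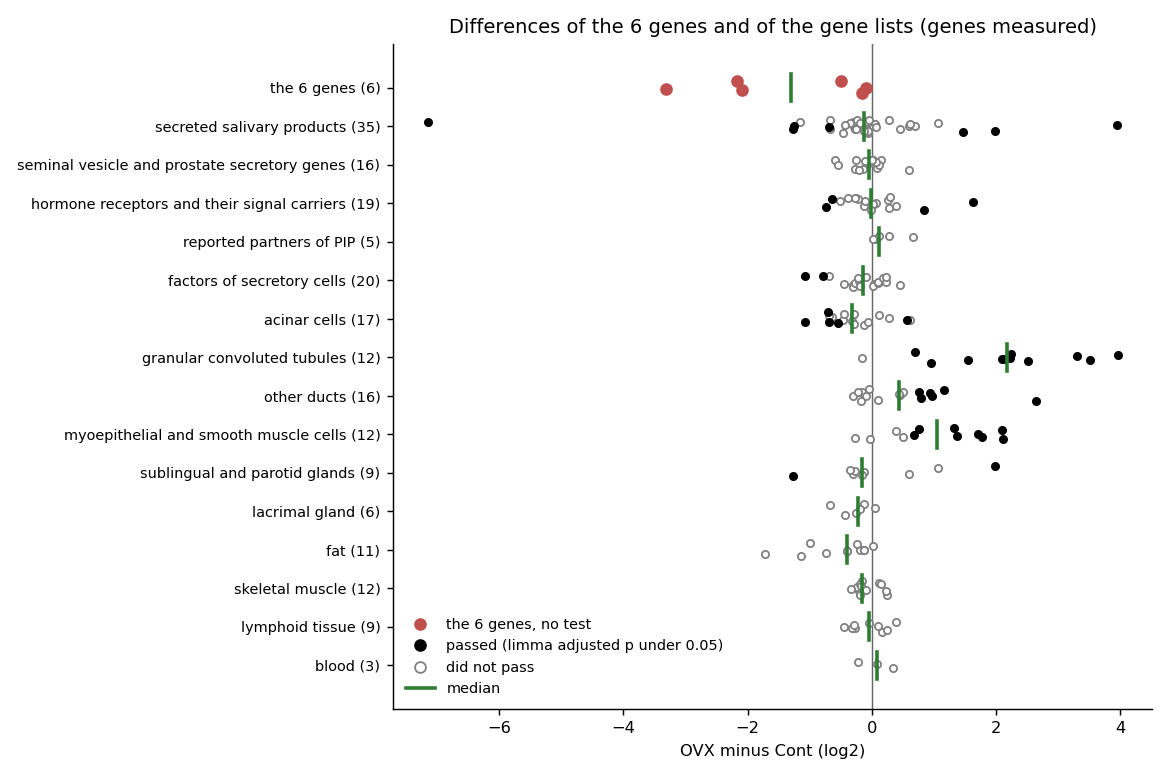
OVX minus Cont difference in log2 units of the 6 genes (red) and of every measured gene of the 15 lists (rows, with the number measured), filled where it passed at a limma adjusted p under 0.05, with the median of each row in green. The 6 genes have a median of −1.30, the acinar genes −0.31, and the granular convoluted tubule genes 2.18.

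Markers of the cell types of the gland differed between the groups beside the 6 genes. Of 17 acinar genes other than Pip, 4 were lower and 1 higher (beside 1.07% and 2.57% of all genes), with a median of −0.31, and their mean level was 8.56 to 8.78 on the OVX arrays and 8.84 to 9.06 on the Cont arrays. Cldn10 averaged 9.04 ± 0.02 in OVX and 9.75 ± 0.14 in Cont (SD, n = 3 each, limma adjusted p = 0.0135), and Lpo, lactoperoxidase, averaged 11.42 ± 0.18 in OVX and 12.10 ± 0.14 in Cont (limma adjusted p = 0.0271). Of the 12 genes of the granular convoluted tubules, 11 passed as higher, with a mean level of 12.36 to 12.40 on the OVX arrays and 9.73 to 10.65 on the Cont arrays, and so did 6 of 16 genes of other ducts and 8 of 12 of myoepithelial and smooth muscle cells, beside 2.57% of all genes. The methods' t-test called 2, 1 and 2 genes of these 3 lists higher after adjustment. With 1 array left out, 1 to 3 acinar genes passed as lower (1 without OVX mouse 1 or Cont mouse 2) and 0 to 1 as higher, and by the methods' t-test 0 passed in either direction. Kcnn4, a potassium channel gene among the 4 (limma adjusted p = 0.0464), passed in 0 of 6 such fits, Cldn10 in 3 of 6 (highest adjusted p = 0.0618, without OVX mouse 1) and Lpo in 2 of 6 (0.0991, without OVX mouse 2). The part of these markers in the values of the 6 genes was not tested.

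Genes of neighbouring tissue that could have been taken with the gland were followed too. The 9 sublingual and parotid genes also stand in the lists of secreted salivary products or granular convoluted tubules. All measured lacrimal genes but Obp1a are among the secreted salivary products as well. These 2 lists are therefore not markers of those tissues alone, and whether such tissue was taken was not tested. Of 9 sublingual and parotid genes, 1 was higher (Amy1) and 1 lower (Dcpp3), both already counted among the secreted salivary products. Dcpp3, a secreted demilune cell and parotid protein, read 3.56, 3.66 and 3.95 in OVX mice, against 4.56, 4.67 and 5.75 in Cont mice (limma adjusted p = 0.0245). It passed in 4 of 6 fits with 1 array left out. Its OVX values were all under the background limit, and those of Cont mice 1 and 2 were only just above it. Of 6 lacrimal, 11 fat, 12 skeletal muscle, 9 lymphoid and 3 blood genes, 0 passed by limma or the methods' t-test in either direction, although up to 2 fat genes and 1 lacrimal gene were called lower under other settings. At an unadjusted limma p under 0.05, 1 lacrimal, 4 fat, 1 muscle and 2 lymphoid genes were lower, and 1 lymphoid gene was higher. The mean level of the fat genes was 4.37 to 5.15 on the OVX arrays and 5.20 to 5.72 on the Cont arrays. That of the lacrimal genes was 4.03 to 4.28 on the OVX arrays and 4.34 to 4.53 on the Cont arrays. Neither overlapped, but the lacrimal mean was under the background limit on every array, as were 3 of the 6 lacrimal genes. The mean levels of the acinar genes and of the secreted salivary products were also lower in OVX without overlap. The part of these tissues in the values of the 6 genes was not tested.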

How the data were processed

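Arrays of 3 OVX and 3 Cont mice were grouped by their GEO labels. The authors normalized the arrays with SST-RMA according to their methods. RMA and Affymetrix Power Tools stand in the processing notes of the submitters, with neither version nor genome build given in the sources used here. They deposited log2 intensities of 22206 probe sets, with log2 inferred from the range, and 2634 without a gene symbol were left out. For 55 genes with several probe sets the brightest was kept. The test was that of limma 3.58.1 under R 4.3.3 (lmFit and eBayes, two-sided, Benjamini-Hochberg adjustment over all 19572 probe sets with a symbol), a step checked on simulated data. The 3 animals per group limit the precision. The 6 genes and all lists were chosen with earlier results of these data known. Genes were named by rule: the 6, the 3 most alike to each, the nearest neighbours, and up to 4 per list with the smallest p among those that passed, or up to 2 where none passed. Dim genes were not filtered out. Promoters were aligned with Biopython 1.88 (match 2, mismatch -1, gap opening -4, gap extension -0.5). The planned comparison of proteins was not run, and some further motifs that were searched are not reported here. The alternatives were other normalization, centring, filters, variance settings, the replicate block, the methods' t-test, other background limits, local alignment and each array left out in turn.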

Additional observations from a re-analysis of the deposited data

How the results depend on the processing

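The median difference of the 6 genes was −1.30 and lay between −1.43 and −1.07 with single arrays left out. Every difference of the 6 stayed within 1 SD between replicates of its value in the settings that gave one. At this group size, leaving out 1 array cannot move a difference further than that, and the replicate block leaves it unchanged. Those settings therefore could not have shown a larger shift, and nothing is read from their staying within that range. The sign changed only for Sval1, without Cont mouse 3. Leaving out the dimmest 30% of probe sets removed 4 of the 6, so no median was formed there. How many of the 6 count as measured depends on the limit. Above it on all Cont arrays were 2 genes, against 1 with the 99th percentile of the receptors and 4 with the highest Y-linked gene, and 5 were above it on no OVX array, against 2 with the Y-linked limit.

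Over all genes, 709 passed and 208 of them were lower, against 1104 and 378 with the trend and robust options of limma, 79 and 16 with the methods' t-test, and 382 to 561 and 85 to 151 with 1 array left out. The replicate numbers did not pair the mice, with correlations of same-numbered deviations of 0.07, 0.01 and −0.04. With the replicate block the lower hormone receptor genes numbered 1, not 2, and the median of the 6 genes was −1.30. With the methods' t-test no locus neighbour was called lower (0), secreted products gave 0 higher and 1 lower, hormone receptors 0 and 0, and secretory factors 0 lower. Without the dimmest 30% of probe sets the counts were 0 lower neighbours, 5 higher secreted products and 1 higher secretory factor, the last also 1 with trend and robust options. With quantile normalization 1 seminal vesicle gene was higher. Of the fat genes, 0 of which passed, 2 were lower with the replicate block (Fabp4, adjusted p = 0.0229, and Cidec, 0.0371), 1 without the dimmest 30% and 1 without Cont mouse 2. Of the lacrimal genes 1 was lower with trend and robust options and 1 without Cont mouse 3. Leaving out arrays gave 1 to 2 lower neighbours, 3 to 5 higher and 2 to 5 lower secreted products, 0 to 2 lower hormone receptor genes and 1 to 2 lower secretory factors. The causes were not tested.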
